A study of Mus musculus with 3 samples.

Results

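The genes described here encode the glucose transporter and enzymes that carry glucose to lactate: Slc2a1, Hk1, Hk2, Pfkl, Pfkp, Aldoa, Pgk1, Eno1, Pkm and Ldha. They were chosen by name, and all probe sets that the platform annotation assigns to them were read. Of the 10 genes, 9 were measured, by 22 probe sets of the 45101 on the array. The annotation used names no probe set for Eno1, the glycolytic enolase, so Eno1 was not analysed here. By title and source, the arrays measured messenger RNA of B16, a melanoma cell line from mouse, at 0, 2 and 4 h of doxorubicin. The dose was 1 µg/ml. Doxorubicin is an anthracycline drug that binds DNA and traps topoisomerase II on it. The description field of the labels names another cell type and treatment, given below with the markers. Cells grew in DMEM with serum, and each time point was 1 Mouse430_2 array. With 1 array per time point no test was possible, no value has a spread between cultures, and ratios describe these arrays only. The samples include no untreated culture at 2 or 4 h, so drug and time in culture cannot be told apart. Signals were scaled to the same trimmed mean on each array, and a probe set passed the expression filter if its mean signal over the 3 arrays was at least 200 (mean of log2 signals, with signals under 100 set to 100). Of the 22 probe sets, 21 passed, and each of the 9 genes is represented by its brightest passing probe set, among 9723 genes in all.

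Glycolysis splits glucose into pyruvate in the cytosol and yields ATP without oxygen. Slc2a1 (GLUT1) brings glucose into the cell, hexokinases trap it as glucose 6-phosphate, and phosphofructokinase makes the committing step. Aldolase, phosphoglycerate kinase, enolase and pyruvate kinase then form pyruvate, and lactate dehydrogenase turns pyruvate into lactate. Many tumours run this pathway fast even with oxygen present, and several of its genes are classical targets of hypoxia-inducible factor and of Myc.

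Hk2 was the 1 gene of these 9 that differed at least 2-fold from 0 h, and the 4 genes of the later steps, Aldoa, Pgk1, Pkm and Ldha, differed from 0 h by at most 1.20-fold at both times in their brightest probe sets. Of the 9 genes, none was at least 2-fold lower or higher at 2 h, when 5.69% of all genes were lower and 1.41% higher by that measure. At 4 h, 1 of 9 (11.1%) was at least 2-fold lower and none higher, against 14.4% and 2.32% of all genes, so the share of lower members was near that of all genes. Between 2 and 4 h no member differed 2-fold, against 5.41% of genes lower and 0.843% higher. The 3 comparisons share arrays, so their values are given side by side and are not independent. The median log2 ratio of the 9 genes was 0.09 at 2 h and 0.06 at 4 h, beside -0.01 and -0.07 over all 9723 genes. Quantile normalization gave medians below that of all genes, by 0.13 at 2 h and 0.25 at 4 h, so the small positive position of the group depended on the scaling.

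Hk2, the inducible hexokinase that binds mitochondria and is abundant in many tumours, gave 2364 signal units at 0 h, 1427 after 2 h and 788 after 4 h. Each later array was lower than the one before it. The log2 ratio to 0 h was -0.73 at 2 h (1.66-fold lower) and -1.58 at 4 h (3.0-fold lower), and -0.86 from 2 to 4 h (1.81-fold lower). The gene has 1 probe set, so no other probe set repeats the value. As a yardstick, log2 ratios of different probe sets of the same gene scattered with an SD of 0.34 at 2 h and 0.41 at 4 h among probe sets in the second brightest of 4 signal classes. This probe-level error leaves out variation between cultures and arrays. Of the 9723 genes, 580 had a lower ratio than Hk2 at 4 h and 1033 at 2 h, which places it in the lowest 5.97% and 10.6%. In every setting tried, Hk2 was the member at least 2-fold lower at 4 h, with log2 ratios from -1.91 to -1.28. Of the 12 alternatives, only the 3 other array scalings and the offset of 50 could change its ratio.

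**Figure D1:**
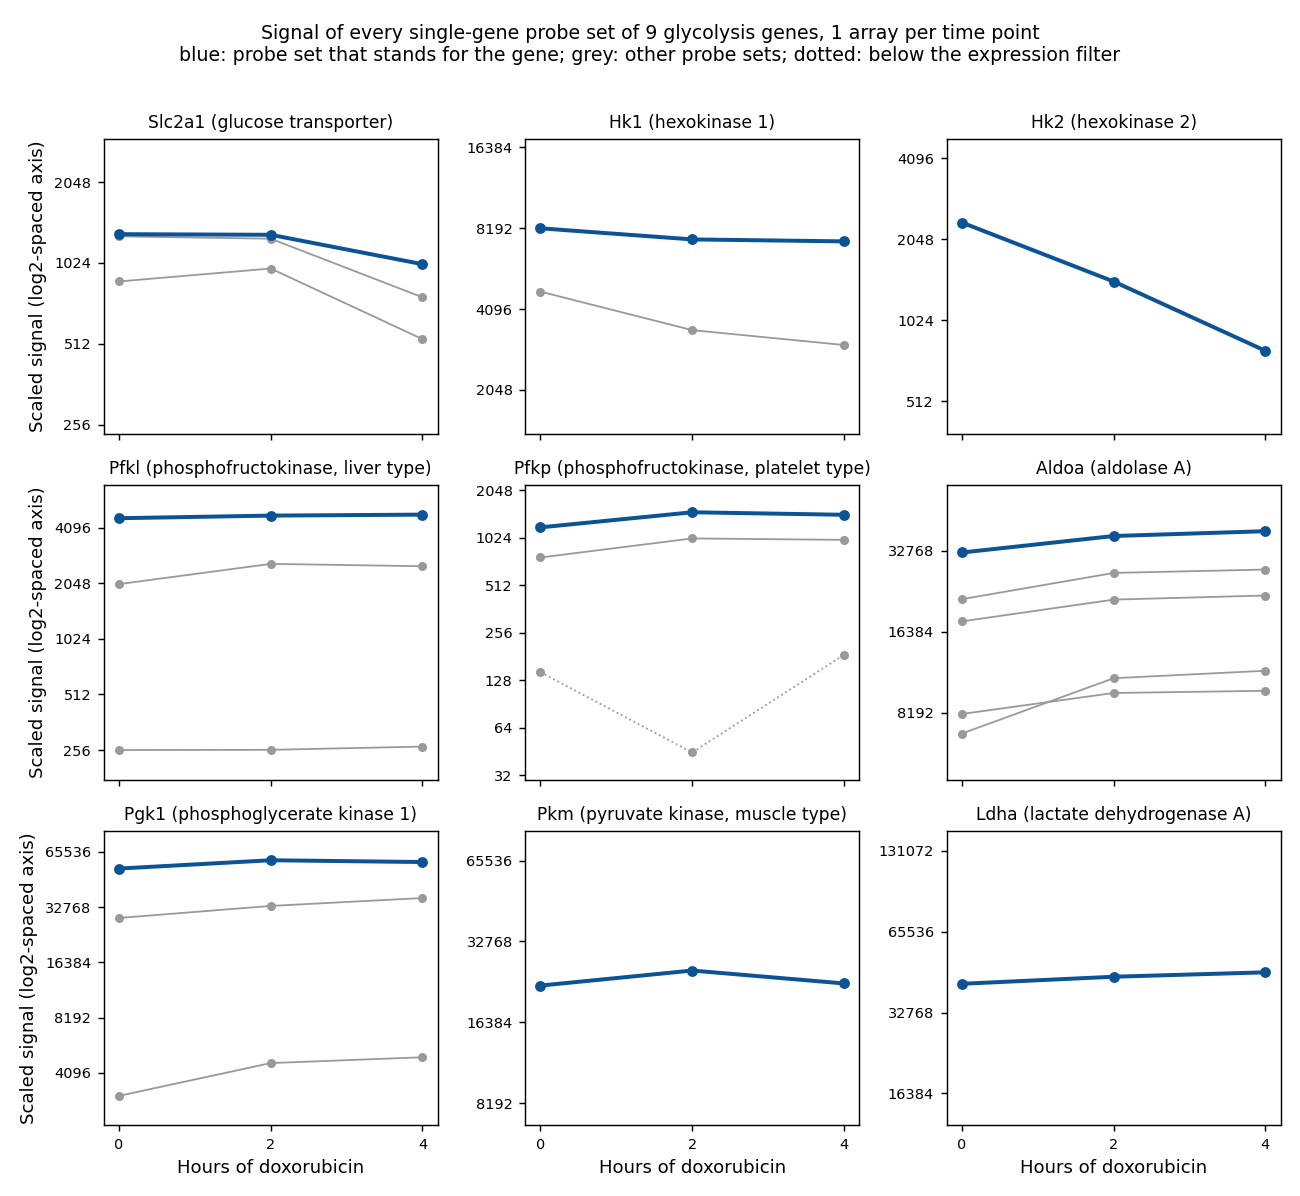
Scaled signal (log2-spaced vertical axis, different range in each panel) against hours of doxorubicin for the 22 single-gene probe sets of 9 genes, 1 array per time point; blue lines stand for the gene, grey lines are its other probe sets and the dotted line is the Pfkp probe set below the filter. Hk2 steps down from 2364 to 1427 to 788, and the 3 Slc2a1 probe sets are lower at 4 h. The blue lines of Aldoa, Pgk1, Pkm and Ldha run nearly level. The dimmest grey lines of Aldoa and Pgk1 rise, from 6853 to 11733 and from 3069 to 4983 at 4 h.

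Hk1, the housekeeping hexokinase, had signals of 8185, 7442 and 7318, nearly level over the 3 arrays. Its log2 ratio was -0.14 ± 0.24 at 2 h and -0.16 ± 0.35 at 4 h (SD over 2 probe sets). The other Hk1 probe set had signals of 4758, 3421 and 3011 and lay lower, at -0.48 and -0.66. The pair disagreed on the size of the difference but had the same sign, except that the brighter one stood at 0.02 and 0.14 with equal array medians. A further probe set is annotated to Hk1 together with Rpl17, a ribosomal protein gene, and 4 other entries, so it was not used for Hk1. Its signals went the other way, with 16402, 23491 and 23759. The log2 ratio of Hk2 was lower than that of Hk1 by 0.59 at 2 h and by 1.42 at 4 h, a gap between isozymes that does not depend on the scale factor of an array. With the other Hk1 probe set in place of the brightest, Hk1 at 4 h was -0.66 and the gap smaller. Quantile normalization, which applies no single factor per array, also narrowed the gap. It put Hk2 at -1.53 and Hk1 at -0.54 at 4 h.

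Slc2a1, the high-affinity glucose transporter of most dividing cells, was level at 2 h and lower at 4 h. Its brightest probe set had signals of 1310.2, 1303 and 1013. The others had 1286, 1260.2 and 763, and 874, 976 and 533. All 3 probe sets were below both earlier arrays at 4 h, while at 2 h they had no common direction. The log2 ratio was -0.01 ± 0.10 at 2 h and -0.37 ± 0.21 at 4 h (SD over 3 probe sets), where the other probe sets stood at -0.75 and -0.71. In the main scaling no probe set reached a 2-fold difference at 4 h. The gene stood at -0.07 with equal array medians and at -0.69 with spike-in scaling, where the other probe sets passed 2-fold at -1.07 and -1.03. Relative to the median of all genes it lay at -0.31 at 4 h, with a range of -0.31 to -0.29 over the 4 scalings compared.

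Phosphofructokinase, the enzyme that commits fructose 6-phosphate to glycolysis, is represented by its liver and platelet types. Pfkl had signals of 4616, 4769 and 4826, almost the same on the 3 arrays. Its log2 ratio was 0.05 ± 0.20 at 2 h and 0.06 ± 0.15 at 4 h (SD over 3 probe sets), and it became negative, at -0.19 and -0.26 at 4 h, with quantile and spike-in scaling. Pfkp had signals of 1192, 1486 and 1432, higher on both later arrays. Its log2 ratio was 0.32 ± 0.06 at 2 h and 0.26 ± 0.08 at 4 h (SD over 2 probe sets), the highest of the 9 genes at 2 h and level with Aldoa at 4 h, but -0.06 at 4 h with spike-in scaling. The third Pfkp probe set, with signals of 144, 44.6 and 185, did not pass the filter. In the brightest probe sets, the isozymes were closer to each other than the hexokinases, with Pfkl below Pfkp by 0.27 at 2 h and 0.20 at 4 h. With the other Hk1 probe set, at -0.48 beside -0.73 for Hk2, this order did not hold at 2 h. Nor did it at 2 h with quantile normalization, where Pfkl and Pfkp stood at -0.11 and 0.38. Hk1 and Hk2 stood there at -0.38 and -0.79. The probe-level SD was 0.34 and 0.41 in the class given for Hk2, and 0.26 and 0.31 in the brightest class, which holds Pfkl. These SDs are of single ratios, not of a difference between genes.

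Among the enzymes that follow, Aldoa, which splits fructose 1,6-bisphosphate, had signals of 32326, 37228 and 38802. Both later arrays were above 0 h for each of its 5 probe sets. The log2 ratio was 0.20 ± 0.19 at 2 h and 0.26 ± 0.21 at 4 h (SD over 5 probe sets). Of the 5, 4 lay between 0.26 and 0.37 at 4 h, and 1, with signals of 6853, 11008 and 11733, at 0.78. All carry a suffix that marks probes shared with other sequences, so cross-hybridisation to related transcripts was not tested. Pgk1, which makes the first ATP of the pathway, had signals of 53205, 59053 and 57745. Its log2 ratio was 0.15 ± 0.24 at 2 h and 0.12 ± 0.29 at 4 h (SD over 3 probe sets). The brightest Pgk1 probe set carries the same suffix as those of Aldoa. Of its other probe sets, the one without it stood at 0.36 at 4 h and the one with it at 0.70. The latter had signals of 3069, 4632 and 4983.

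Pkm, the pyruvate kinase of most tissues other than liver, had signals of 22456, 25547 and 22873, highest at 2 h, and log2 ratios of 0.19 and 0.03. The splice forms M1 and M2 were not separated here. Ldha, which regenerates NAD+ by reducing pyruvate to lactate, had signals of 41921, 44533 and 46247 and log2 ratios of 0.09 and 0.14, also from 1 probe set. All 10 probe sets of Aldoa, Pgk1, Pkm and Ldha had positive log2 ratios at 2 and at 4 h in the main scaling, with medians of 0.24 and 0.30. With equal medians all 4 genes were above 0 at 4 h, from 0.33 for Pkm to 0.57 for Aldoa. In that scaling the dimmest probe sets of Aldoa and Pgk1 passed 2-fold higher at 4 h, at 1.08 and 1.003. At gene level the direction turned in the 2 other scalings. With spike-in scaling all 4 genes were below 0 at 4 h, from -0.06 for Aldoa to -0.30 for Pkm. Quantile normalization put Pkm at -0.38, but Aldoa and Ldha at -0.07 and Pgk1 at -0.005, near 0. The dimmest probe sets of Aldoa and Pgk1 stayed above 0 in both scalings, at 0.42 and 0.50 with quantile normalization. Most of the group is bright: 6 of the 9 genes (Hk1, Pfkl, Aldoa, Pgk1, Pkm and Ldha) lay in the brightest of 4 equal classes of genes by mean signal, whose median log2 ratio was 0.19 at 2 h and 0.28 at 4 h. In that class 73 of 2431 genes were at least 2-fold lower at 4 h, so the background for these 6 is lower than the 14.4% over all genes. Slc2a1, Hk2 and Pfkp lay in the next class, where 11.9% of genes passed that fold at 4 h.

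**Figure D2:**
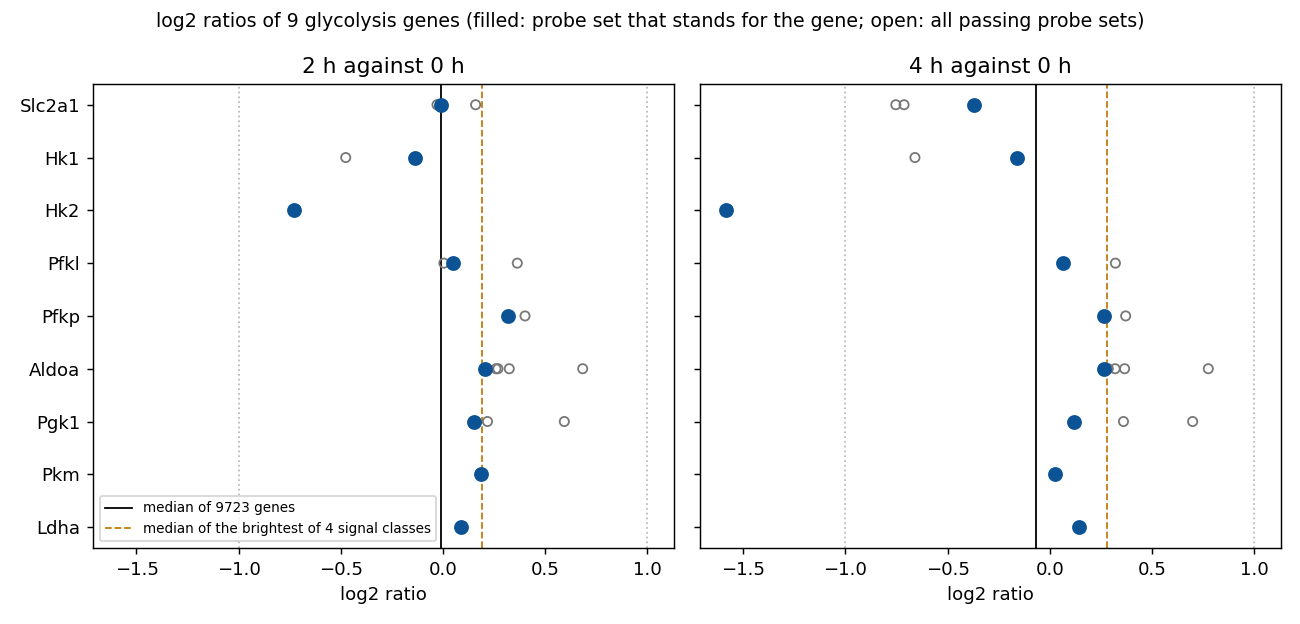
log2 ratios at 2 h and at 4 h against 0 h (horizontal axis) for each of the 9 genes; filled points are the probe sets that stand for the genes, open points all passing probe sets, dotted lines mark 2-fold, the black line the median of 9723 genes and the dashed line the median of the brightest of 4 signal classes. Hk2 is the 1 point beyond 2-fold, at -1.58 in the 4 h panel, and the 3 Slc2a1 points move from around 0 to between -0.75 and -0.37.

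The glycolytic enzyme Gapdh, glyceraldehyde 3-phosphate dehydrogenase, is measured without shared genes only by the control probe sets of the array. Its 3′ part had signals of 62363, 64258 and 58916, its middle part 69703, 73586 and 67842, and its 5′ part 75522, 77966 and 73391. The log2 ratios lay between 0.04 and 0.08 at 2 h and between -0.08 and -0.04 at 4 h. The ratio of 3′ to 5′ signal, a check of RNA integrity, was 0.826, 0.824 and 0.803. For beta-actin, the other control transcript, it was 1.07, 1.10 and 1.18, highest at 4 h, and a part of RNA integrity in the ratios was not tested. The 5′ signal of Gapdh at 4 h was the highest on that array, and whether signals of this size lie outside the linear range of the scanner was not tested.

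Of the 9 genes, 7 had log2 ratios on both sides of 0 at 4 h over the 4 scalings compared, while Hk2 and Slc2a1 were below 0 in each. At 2 h Hk2 was below 0 and Pfkp above 0 in each, and the other 7 changed sign. Against the main scaling, the all-gene median at 4 h shifted by 0.30 with equal medians, by 0.12 with quantile normalization and by -0.32 with scaling to the 18 hybridization spike-ins. The main scaling gave 1396 genes at least 2-fold lower and 226 higher at 4 h. Equal medians gave 877 and 727, quantile normalization 991 and 431, and spike-ins 2206 and 65. At 2 h the numbers were 553 and 137 in the main scaling, and 371 and 231, 401 and 233, and 917 and 71 in the others. Among the 9 members, 6 had a positive log2 ratio at 4 h in the main scaling, where 53.9% of all genes were negative. With equal medians 7 members were positive, with quantile normalization 1 and with spike-ins none. Relative to the median of all genes in the same scaling, Hk2 lay between -1.58 and -1.52 and Pfkp between 0.30 and 0.33. Pkm lay at 0.09 in 3 scalings and at -0.44 with quantile normalization, and Hk1 at -0.60 with quantile normalization, against -0.10 in the main scaling.

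**Figure D3:**
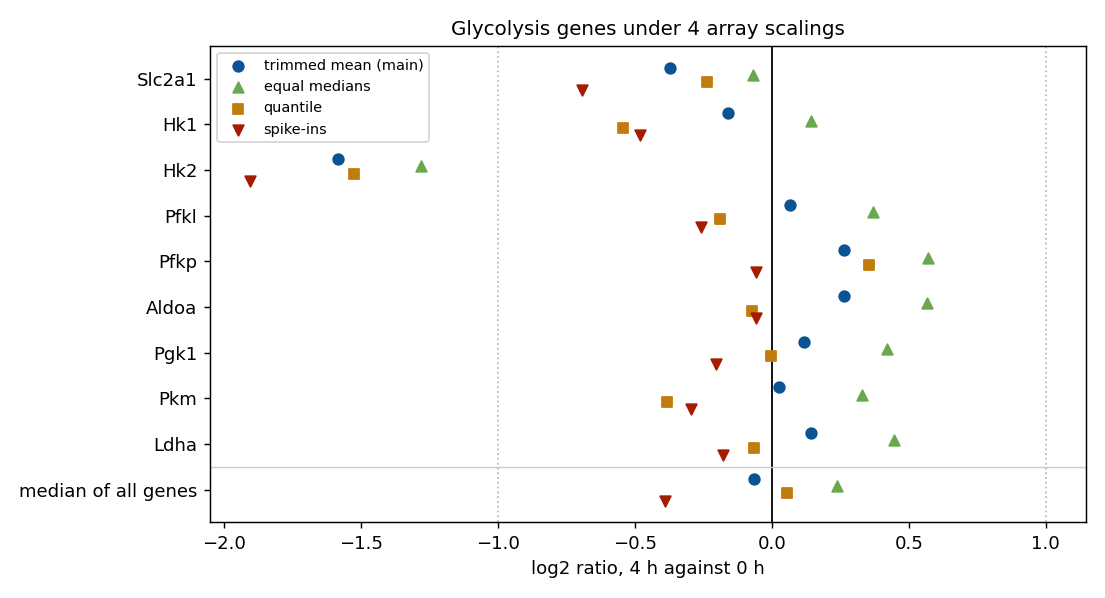
log2 ratio at 4 h against 0 h (horizontal axis) of the 9 genes and of the median of all genes under 4 array scalings, shown by symbol and colour; dotted lines mark 2-fold. Hk2 stays between -1.91 and -1.28, left of the 2-fold line in all 4, whereas the points of Pfkl, Aldoa, Pgk1, Pkm and Ldha lie on both sides of 0.

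The RefSeq promoter table of GRCm38.p6 holds 17 start-site windows for all 10 genes, each from 250 bases before to 50 bases after a start. They were searched on both strands for ACGTG, the core of the hypoxia response element. Stretches upstream of the start are shown for Hk2 (chr6:82774455-82774704, minus strand) and Slc2a1 (chr4:119108495-119108744, plus strand), the lowest members at 4 h. They stand beside Pgk1 (chrX:106186850-106187099, plus strand) and the first of the Ldha starts (chr7:46845554-46845803, plus strand). Pgk1 and Ldha were near their 0 h signal at 4 h in the main scaling, by their brightest probe sets. Capitals mark ACGTG or its reverse complement CACGT, and each sequence runs 5′ to 3′ along the gene's strand.
Hk2: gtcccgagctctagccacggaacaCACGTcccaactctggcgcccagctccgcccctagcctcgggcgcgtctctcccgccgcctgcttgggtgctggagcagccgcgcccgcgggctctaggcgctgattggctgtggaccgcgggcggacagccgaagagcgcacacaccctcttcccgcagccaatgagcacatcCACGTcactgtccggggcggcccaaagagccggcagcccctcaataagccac
Slc2a1: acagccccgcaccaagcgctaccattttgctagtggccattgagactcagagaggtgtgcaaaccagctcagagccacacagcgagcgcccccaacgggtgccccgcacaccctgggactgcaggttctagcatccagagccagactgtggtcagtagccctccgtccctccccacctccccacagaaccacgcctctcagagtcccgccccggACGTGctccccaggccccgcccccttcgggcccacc
Pgk1: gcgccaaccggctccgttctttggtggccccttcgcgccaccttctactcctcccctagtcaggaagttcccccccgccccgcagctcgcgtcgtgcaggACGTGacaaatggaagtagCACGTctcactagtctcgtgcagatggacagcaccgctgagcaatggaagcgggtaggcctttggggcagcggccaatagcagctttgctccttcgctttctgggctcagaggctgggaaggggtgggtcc
Ldha: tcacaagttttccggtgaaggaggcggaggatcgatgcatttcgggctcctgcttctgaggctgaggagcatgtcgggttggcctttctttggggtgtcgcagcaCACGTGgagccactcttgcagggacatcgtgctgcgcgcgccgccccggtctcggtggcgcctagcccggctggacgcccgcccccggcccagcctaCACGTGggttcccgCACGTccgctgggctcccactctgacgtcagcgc
In these stretches the core stands in 2 places for Hk2, 1 for Slc2a1, 2 for Pgk1 and 3 for Ldha, 2 of which are also the E-box CACGTG, the sequence bound by Myc with Max. Each stretch holds capitals, and a link between the core and the ratios was not tested. Of the 17 windows, 8 (47.1%) held ACGTG, against 19.6% of all 32851 windows, and the genes were Aldoa, Hk1, Hk2, Ldha, Pgk1, Pkm and Slc2a1. CACGTG, which contains ACGTG, was in 1 of 17 (5.88%) against 7.15%. The GC box GGGCGG was in 11 (64.7%) against 35.7%, CCAAT in 10 (58.8%) against 37.4%, and TATAAA in 1 (5.88%) against 13.6%. The member windows were 51.3% to 69.0% G and C, against a median of 52.7% over all windows, several windows of a gene overlap, and a match does not show that a factor binds. The genes span from 5.76 kb (Aldoa) to 111 kb (Hk1) in the genome, with 49.4 kb for Hk2.

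The other genes of glucose use were read from 9 lists with 120 genes, chosen with earlier results of these data known. Among 13 other glycolysis enzymes above the filter, 2 were at least 2-fold higher at 2 and 4 h and none lower, with a median of 0.12 at 4 h. Of all genes, 1.41% were higher by that measure at 2 h and 2.32% at 4 h. The enzymes higher were under 200 at 0 h, passed the filter through their later signals and rested on 1 probe set each. Hk3, a hexokinase, had signals of 113, 369 and 268, and Aldoc, the brain-type aldolase, 126, 312 and 280.0. With spike-in scaling neither was 2-fold higher at 4 h. Below the filter, Hkdc1 had signals of 271, 25.5 and 27.6 and Ldhc 225, 50.8 and 48.8. Both, named after seeing their values, were at least 2-fold lower at 2 and 4 h. Picked after seeing their values, the bright enzymes Tpi1, triose phosphate isomerase, and Pgam1, phosphoglycerate mutase, stood at 0.27 ± 0.19 (SD over 3 probe sets) and 0.41 at 4 h in the main scaling, beside 0.26 for Aldoa.

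Fructose 2,6-bisphosphate is the strongest activator of phosphofructokinase, and among 4 genes that set its level 2 passed 2-fold below 0 h at each time, against 5.69% of all genes at 2 h and 14.4% at 4 h. Pfkfb3, a kinase that makes it, had signals of 509, 163 and 157, at log2 ratios of -1.64 and -1.69. Pfkfb2, a related kinase, had 390, 137 and 275, lowest at 2 h, with ratios of -1.51 and -0.50. Tigar, which degrades fructose 2,6-bisphosphate, had 1074, 871 and 472. It stood at -0.30 ± 0.18 after 2 h and -1.19 ± 0.24 after 4 h (SD over 3 probe sets). A kinase and the phosphatase of the same metabolite were both lower at 4 h. The fourth gene, Pfkfb4, named after seeing its value, stood at 0.33. With equal medians or quantile normalization 1 of the 4 was at least 2-fold lower at 4 h.

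Of the other hexose and lactate transporters, 7 passed the filter, and the share lower at 4 h was near the 14.4% of all genes. Among these 7, 1 lay beyond 2-fold below 0 h at 4 h and none above. It was Slc2a5, the fructose transporter, whose signals were 338, 297 and 165 (log2 ratio -1.04 at 4 h), and it was within 2-fold with equal medians or quantile normalization. Slc16a1, the lactate transporter MCT1, and its partner Bsg were picked after seeing their values and stood at 0.41 and 0.52 at 4 h. Above the filter were 11 genes of pyruvate entry into mitochondria, 6 of the pentose phosphate pathway and 4 of gluconeogenesis. So were 18 of the citric acid cycle and malate-aspartate shuttle. None of all these was at least 2-fold different at 2 or 4 h in the main scaling. At 4 h, equal medians put 1, 2, 1 and 0 of them 2-fold higher, quantile normalization 1 of gluconeogenesis higher, and spike-ins 1 of pyruvate entry lower. Their medians at 4 h were 0.35, 0.45, 0.07 and 0.43. The citric acid cycle list had 17 of 18 genes above 0 at 4 h in the main scaling, 12 with quantile normalization and 13 with spike-ins, and all 18 with equal medians. In the main scaling 53.9% of all genes were below 0 at 4 h, while the brightest signal class had a median of 0.28. In the branches to glycogen, hexosamine and glycerol, 2 of 15 genes were at least 2-fold higher at 4 h, or 1 with spike-ins, where 1 was lower. In the main scaling 2.32% of all genes were that much higher. Pgm3, an enzyme of the hexosamine pathway, had signals of 57.2, 501 and 584, at least 5.84-fold higher at 4 h, and Gbe1, the glycogen branching enzyme, 149, 327 and 299. Both rested on 1 probe set, were under 200 at 0 h and passed the filter through their later signals. In the dimmest of the 4 signal classes, 101 of 2431 genes were at least 2-fold higher at 4 h.

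Of 13 transcriptional regulators of glycolysis, 3 were at least 2-fold lower at 4 h (23.1%, against 14.4% of all genes), in each of the 4 scalings. None was higher, or 1 with equal medians or quantile normalization, and the median was -0.49. Myc, an activator of several of the members, lay outside the range of the members, with signals 1613, 109 and 128 (log2 ratios -3.88 and -3.66). It rested on 1 probe set, was under 200 on both later arrays and passed the filter through its 0 h signal. Txnip, which restrains glucose uptake and is itself induced by glucose, had 909, 310.0 and 62.6, at least 9.09-fold lower at 4 h. Vhl, the ubiquitin ligase subunit that removes hypoxia-inducible factors, had 1237, 696 and 329. It stood at -0.83 ± 0.09 after 2 h and -1.91 ± 0.80 after 4 h (SD over 2 probe sets). Picked after seeing their values, Hif1a, with 2019, 2360 and 3208, and Epas1, with 523, 884 and 916, encode hypoxia-inducible factor subunits and stood at 0.67 ± 0.25 (SD over 3 probe sets) and 0.81 ± 0.24 (SD over 2 probe sets) at 4 h. They were the 2 regulators above 0 in the main scaling. Arnt, the subunit with which both pair and also named after seeing its value, had 551, 487 and 385 and stood at -0.52 ± 0.64 (SD over 3 probe sets).

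**Figure D4:**
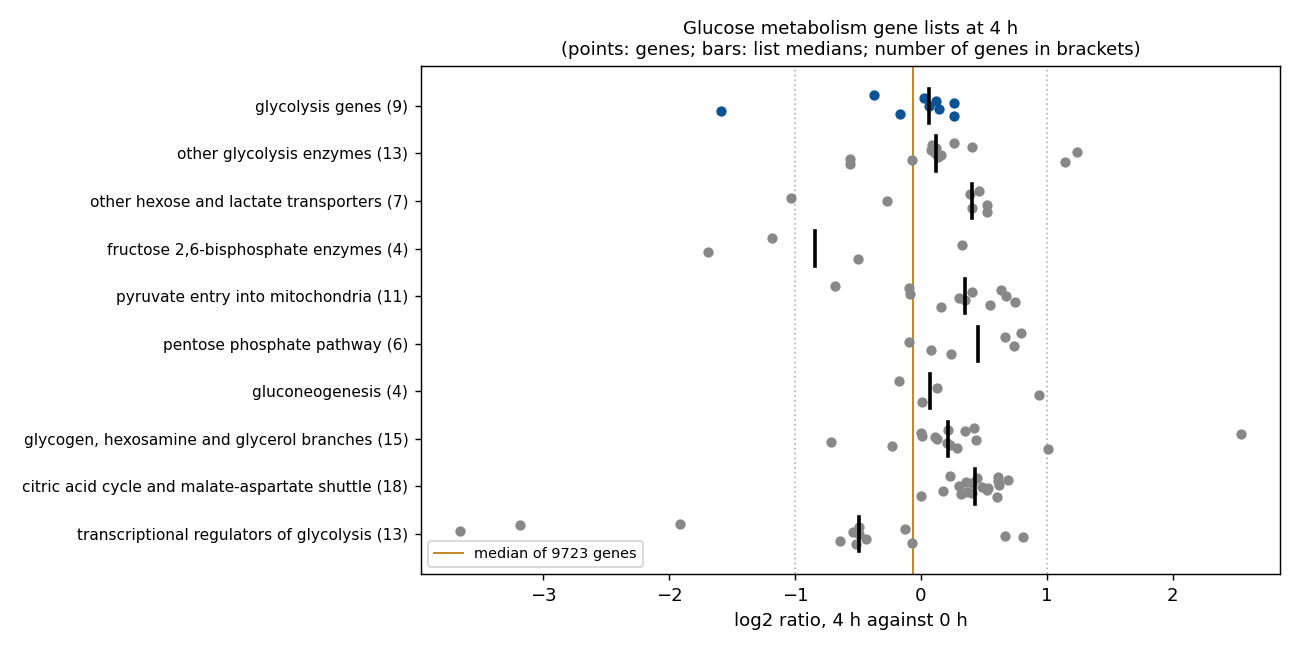
log2 ratio at 4 h against 0 h (horizontal axis) of the genes that passed the filter in the 9 glycolysis genes (blue) and in 9 further lists (grey); black bars are list medians, dotted lines mark 2-fold and the orange line is the median of 9723 genes. The fructose 2,6-bisphosphate list and the regulators have medians of -0.84 and -0.49, left of all genes, and the points for Txnip and Pgm3 are bounds because a signal was under 100.

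The labels name B16 cells and doxorubicin in title and source, but bone marrow-derived macrophages and an ET treatment in the description. Arrays were assigned by their titles. Defining markers of cell types were read on each array, and these cannot tell which treatment was given. Of 16 pigment cell markers, 15, 13 and 14 had a signal of at least 200 at 0, 2 and 4 h, with summed signals of 217901, 234810 and 234304. Tyrp1 and Pmel were the brightest by mean over the arrays, while the median over the 16 markers was 7489, 2420 and 1417. Among the 13 above the filter, 4 (30.8%) lay 2-fold or more below 0 h at 4 h and none above it, against 14.4% of all genes lower. The transcription factor Sox10 stood at -3.71 ± 0.82 (SD over 3 probe sets) and Mitf, the regulator of the pigment cell programme, at -3.15 ± 0.69. Mc1r, the melanocortin receptor, stood at -1.73 ± 0.05 and Rab38, which serves melanosome transport, at -1.06 ± 0.02 (SD over 2 probe sets for these 3). With equal medians 3 of the 13 were 2-fold lower. These markers and Hk2 were lower on the same arrays, and a part of cell state in the Hk2 ratio was not tested. Of 21 macrophage markers, 7, 6 and 6 had a signal of at least 200, with sums of 5180, 5975 and 6631. Cd68 and Csf1r were the brightest of them by mean over the arrays. Cd68 had 1884, 3044 and 3699, a larger rise than that of the sum, and Csf1r had 522, 424 and 376. Ptprc, Itgam, C1qa and Aif1, named after seeing their values, were under 200 on each array. Fibroblast markers reached 200 in 4 of 9 on each array (Col1a1 and Postn brightest, Col1a2 with 731, 478 and 304, 2-fold lower at 4 h), lymphocyte markers in 2, 2 and 1 of 6 (Cd8a and Ms4a1) and endothelial markers in 1 of 7 (Kdr, with Tek, Cdh5 and the others under 200). The part of other cell types in the ratios above was not tested, and fewer cells of a type and less RNA per cell cannot be told apart in such samples. The arrays ran on 1 fluidics station in modules 3, 4 and 1, which cannot be told apart from time.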

How the data were processed

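Per the labels' protocols, total RNA was extracted with Trizol and labelled as biotinylated cRNA. The submitters' processing notes name GCOS 1.4, with no signal algorithm given in the sources used. The deposited values are intensities on a linear scale, with a 2% trimmed mean of 150 on each array. They were rescaled here to 500, floored at 100 and put on a log2 scale. Of 45101 probe sets, 64 are controls, 34958 carry 1 gene symbol, 932 carry several and 9211 are not listed. Symbols of 34754 were updated by Entrez ID to the RefSeq table of GRCm38.p6. Probe sets with 1 symbol and a mean signal of at least 200 numbered 15785, and the brightest stood for each of 9723 genes. Members, lists and alternatives were chosen with earlier results of these data known. Named from each list were genes beyond 2-fold at 2 or 4 h, up to 6, and 2 markers per cell type, by mean brightness. Other names are marked in the text as picked after seeing their values. The probe-level error is the pooled SD of log2 ratios between passing probe sets of 3905 genes. Steps were tested on simulated data, copies of the first array with little noise and large changes planted in bright genes only. That checks the steps and says nothing on the error of these ratios. Analysis ran in Python 3.11.15 with pandas 2.3.3 and numpy 2.4.6, and figures in matplotlib 3.10.9.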

Additional observations from a re-analysis of the deposited data

How the results depend on the processing

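The 12 alternatives were the values as deposited, 3 other array scalings, floors of 50 and 200, an offset of 50, a filter of 400 or none, averaging over probe sets, leaving out suffixed probe sets (6 of the genes remained) and the second brightest probe set. The counts of members beyond 2-fold were the same in all 12. Several alternatives could not move a member ratio. The deposited values differ only by a scale, and the probe sets used had signals above all floors and filters tried. Hk2, Pkm and Ldha have 1 probe set each, so averaging and the second brightest probe set returned their main values. The median relative to all genes ranged from -0.13 to 0.21 at 2 h and from -0.25 to 0.22 at 4 h, negative with quantile normalization alone at these times. For single members, 1 of 315 alternative values moved by more than the probe-level SD over all signals (0.40 at 2 h, 0.48 at 4 h, 0.38 from 2 to 4 h), namely Hk1 at 4 h with the second brightest probe set (-0.66). Against the smaller SD of the signal class of each member, 16 moved, among them Pkm at 4 h with quantile normalization (-0.38) and Pfkl at 2 h with its second brightest probe set (0.36). In all, 38 differed in sign from the main value. No paired analysis was possible because each time point has 1 array. The number of arrays limits every ratio.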

Other observations

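Probe sets of the same gene gave different ratios within the bright members. For Pgk1 at 4 h the log2 ratios were 0.12, 0.36 and 0.70 for probe sets with 0 h signals of 53205, 28622 and 3069, and for Aldoa the 5 ratios ran from 0.26 to 0.78. For Hk1 they were -0.16 and -0.66. Between 2 and 4 h these probe sets were much closer together, with an SD of 0.02 for Aldoa, 0.09 for Pgk1 and 0.11 for Hk1, so the disagreement lay mainly in the step from 0 to 2 h. For Slc2a1 it lay in the later step, with log2 ratios from 2 to 4 h of -0.36, -0.72 and -0.87. The cause was not tested.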
